A study of Mus musculus with 10 samples.

Results

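The genes described here encode the proteasome. They were chosen by name, as every gene with a probe set of its own on the array whose symbol follows the proteasome pattern (PSMA, PSMB, PSMC, PSMD, PSME, PSMF and PSMG with a number). The name rule uses no measured value, but it was set with earlier results of these data known. The rule found 48 of 19556 named genes. Of these, 46 had a mean signal high enough to be tested, and the other 2, PSMA8 and PSMD6-AS2, lay below the filter at mean log2 values of 2.07 and 2.26.

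The proteasome is the protease that degrades most ubiquitin-tagged proteins. Its core particle is a stack of alpha and beta rings, and the beta subunits PSMB5, PSMB6 and PSMB7 carry the chymotrypsin-like, caspase-like and trypsin-like active sites. A regulatory cap of ATPases (PSMC genes) and non-ATPase subunits (PSMD genes) binds, deubiquitinates, unfolds and feeds in substrates. Interferon induces PSMB8, PSMB9 and PSMB10, which replace the constitutive active subunits to make the immunoproteasome, a form that favours peptides presented on MHC class I.

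The study laser-captured human breast cancer xenograft tissue from frozen sections of tumors in female nu/nu mice (immunodeficient, 20 weeks old) that had received estrogen pellets. The labels do not name the cancer line. Lymph node metastases came from 3 mice with the pellet in place (mice 6, 11 and 14) and from 3 mice whose pellet had been out for 1 week (mice 9, 10 and 19). Primary mammary gland tumors came from 2 mice with estrogen (11 and 14) and 2 after withdrawal (10 and 19), so 4 of the 6 mice gave both sites, and each of the 10 arrays is 1 tissue of 1 mouse. The RNA was amplified by PCR before labelling, and all groups had been exposed to estrogen. In such captured tissue, fewer tumor cells and less RNA per cell cannot be told apart.

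The deposited values are log2 signals after RMA, and differences below are in log2 units. Their medians were 2.70 to 2.83 on all 10 arrays. Their 99th percentiles were 9.44 and 10.04 on the 2 arrays of estrogen-treated primary tumors and 11.39 to 11.67 on the other 8, so the brightest genes read lower on those 2 arrays. For this reason each result is given as deposited and after quantile normalization, which gives every array the same distribution. The tissue carried luminal epithelial markers, with a mean over 8 genes of 7.70 and 7.84 in the estrogen-treated primary tumors and 8.62 to 10.20 on the other 8 arrays. Human leukocyte markers stayed at a mean of 2.81 to 3.26 over the 9 of 12 that were tested, although CD79A read higher in lymph nodes. Stromal and endothelial markers stayed at a mean of 3.93 to 4.65 over 7 of 8. With estrogen, as deposited, 3 of these 7 lay lower in lymph nodes than in primary tumors without overlap, and 0 higher. The shares of all genes were 9.98% and 28.0%. Of the 3, only COL3A1 differed at the threshold used below. PTPRC, the pan-leukocyte marker, was below the filter, at 2.00 to 2.54. Signal from mouse transcripts on these human probe sets was not tested.

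Most proteasome genes gave bright signals in both sites and under both treatments: 37 of the 48 had a mean of 7 or more. The average over the 13 tested core genes in estrogen-treated lymph nodes was 11.24 (mouse 6), 10.36 (mouse 11) and 11.40 (mouse 14). Withdrawn lymph nodes gave 11.02 (mouse 9), 11.18 (mouse 10) and 10.68 (mouse 19). In estrogen-treated primary tumors it was 8.86 in mouse 11 and 9.39 in mouse 14, against 11.02 in mouse 10 and 10.79 in mouse 19 for the withdrawn ones. The 14 cap genes averaged 9.97, 9.52, 9.88, 9.72, 9.86, 9.39, 7.97, 8.30, 9.80 and 9.08 on the same arrays in the same order. Both estrogen-treated primary tumors thus stood below the 8 other arrays for core and cap alike. After quantile normalization the core averages ran from 10.28 to 10.98 and the cap averages from 8.87 to 9.63, and the estrogen-treated primary tumors, at 10.29 and 10.43 for the core and 9.20 on both arrays for the cap, lay within the range of the others.

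**Figure D1:**
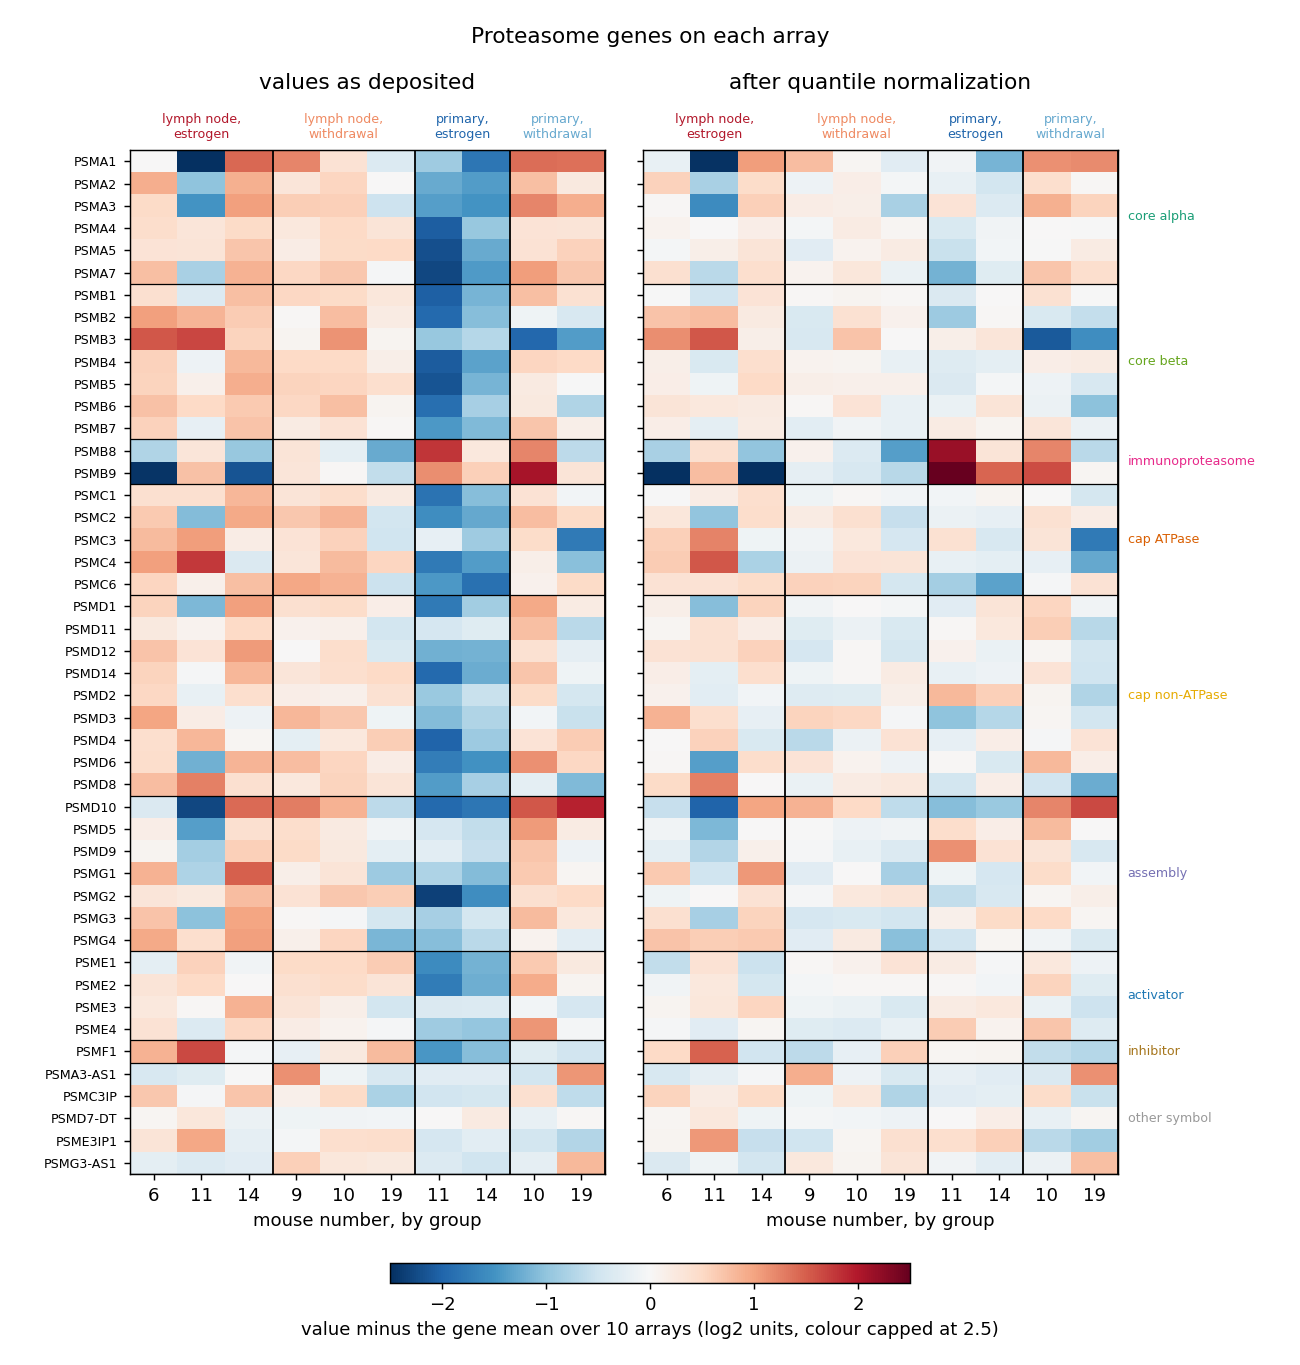
Each tested proteasome gene (rows, grouped by role) on each array (columns, by group and mouse number), as its log2 value minus its mean over the 10 arrays, as deposited (left) and after quantile normalization (right); blue is below and red above the mean. Nearly all core and cap genes are blue in both estrogen-treated primary tumors as deposited and much paler after quantile normalization, while PSMB8 and PSMB9 run differently.

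In primary tumors, the first comparison set estrogen against withdrawal, that is, it asked which genes differed while the hormone was present. As deposited, 15 of the 46 tested members were lower with estrogen and 0 were higher at an adjusted p below 0.05 (limma with the mouse as a random block, Benjamini-Hochberg over 17170 genes). Over all genes tested, 6.94% were called lower and 0.879% higher. The median difference of the members was -1.28, beside -0.10 for all genes. After quantile normalization no member was called (0 of 46, beside 0.757% of all genes higher and 0.582% lower), and the members' median was -0.03, with 23 genes above 0 and 23 below. The 2 estrogen values lay below both withdrawal values for 35 members as deposited (38.3% of all genes did) and for 14 after quantile normalization (26.8% of all genes). They lay above both for 2 members as deposited and 7 after quantile normalization, beside 22.6% and 31.1% of all genes. At an unadjusted p below 0.05, 25 members were lower as deposited (4467 of all genes passed in either direction), and 4 were lower and 4 higher after quantile normalization (21.3%).

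Among the active beta subunits, PSMB5 read 9.71 and 10.69 with estrogen and 12.09 and 11.84 after withdrawal. Neither estrogen value reached the withdrawal values, and the difference was -1.76 ± 0.37 (SE, adjusted p = 0.0277). PSMB7 read 8.90 and 9.23 against 11.03 and 10.48, a difference of -1.69 ± 0.35 (adjusted p = 0.0277). PSMB6 read 9.22 and 10.28 against 11.35 and 10.35, which nearly touch, and its difference of -1.10 ± 0.44 was not called (adjusted p = 0.157). After quantile normalization the same differences were 0.06 for PSMB5, 0.05 for PSMB7 and 0.67 for PSMB6, none of them called.

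Of the structural core genes, PSMA4, PSMA5, PSMA7, PSMB1 and PSMB4 were also called lower with estrogen, by -1.83, -2.20, -2.72, -2.17 and -2.23. All 6 tested alpha subunits had negative differences on both scales, from -2.72 to -1.83 as deposited and from -1.79 to -0.24 after quantile normalization. All genes of like signal also had negative medians on the 2 scales. These were -1.90 and -0.19 for a mean of 10 or more, and -1.15 and -0.05 from 7 to 10. PSMA7 kept a larger difference after quantile normalization than the alpha median of -0.65. It read 7.92 and 8.79 with estrogen against 11.25 and 10.88, and 8.99 and 9.87 against 10.86 and 10.58 after quantile normalization. The groups did not overlap on either scale, but the quantile difference of -1.30 ± 0.44 was not called (adjusted p = 0.149).

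In the cap, 5 of 14 genes were called lower. They were the ATPases PSMC1 (-1.59) and PSMC6 (-1.93), the ubiquitin receptor PSMD4 (-1.95), the deubiquitinase PSMD14 (-1.89) and PSMD6 (-2.46). PSMD14 read 9.91 and 10.63 with estrogen and 12.56 and 11.75 after withdrawal, and PSMD4 read 9.99 and 11.08 against 12.32 and 12.62. Both estrogen values of each gene were below both withdrawal values, yet after quantile normalization the differences shrank to -0.07 for PSMD14 and -0.19 for PSMD4. PSMC6 kept a larger share of its difference, at -1.25 ± 0.37 (adjusted p = 0.110) after quantile normalization, with values of 6.40 and 5.92 against 7.22 and 7.62.

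Activators bind the core in place of the cap. PSME1 and PSME2, the interferon-inducible activator pair, differed by -1.80 ± 0.31 (adjusted p = 0.0178) and -1.97 ± 0.33 (adjusted p = 0.0163), and both differences were close to 0 after quantile normalization (0.04 and -0.14). The nuclear activators PSME3 (-0.11) and PSME4 (-1.45) were not called, nor was PSMF1 (-0.88), known as a proteasome inhibitor. Of the 7 assembly genes only PSMG2, a chaperone of alpha ring assembly, was called (9.34 and 10.13 with estrogen against 12.09 and 12.17, a difference of -2.40 ± 0.32, adjusted p = 0.0110). Its quantile difference of -0.60 ± 0.25 had an adjusted p of 0.218. The other assembly differences as deposited were -1.28 for PSMG1, -1.17 for PSMG3, -0.78 for PSMG4, -1.15 for PSMD5, -0.70 for PSMD9 and -3.60 for PSMD10, none called.

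The call count rested on few arrays. It was 0 without the estrogen-treated primary tumor of mouse 11 and 0 without either withdrawn primary tumor, 9 without the estrogen lymph node of mouse 6, 6 without the withdrawn lymph node of mouse 10, and 26 without the estrogen lymph node of mouse 11. The share of all genes called under these settings is not given, so the shifts are not read as a trait of the members. Signals of the array's hybridization controls also split the primary tumors by treatment (lower on both estrogen arrays, higher on both withdrawal arrays), so that difference and estrogen cannot be told apart here. Luminal epithelial markers were lower in the same tumors as deposited: 3 of 8 were called (EPCAM -3.53, CDH1 -3.13 and GATA3 -2.70), and their median was -2.67. After quantile normalization none of the 8 was called and the median was -1.15. Their part in the proteasome differences was not tested.

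The members' differences were of the size found for other genes of like signal. Among genes with a mean of 10 or more, 21 members had a median difference of -1.89 and all 847 genes -1.90, and 58.2% of those 847 were called lower. Among genes with a mean from 7 to 10, 16 members had a median of -1.21 and all 3169 genes -1.15. After quantile normalization both medians were -0.19 in the brighter class, and 0.03 for the members and -0.05 for all genes in the next.

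**Figure D2:**
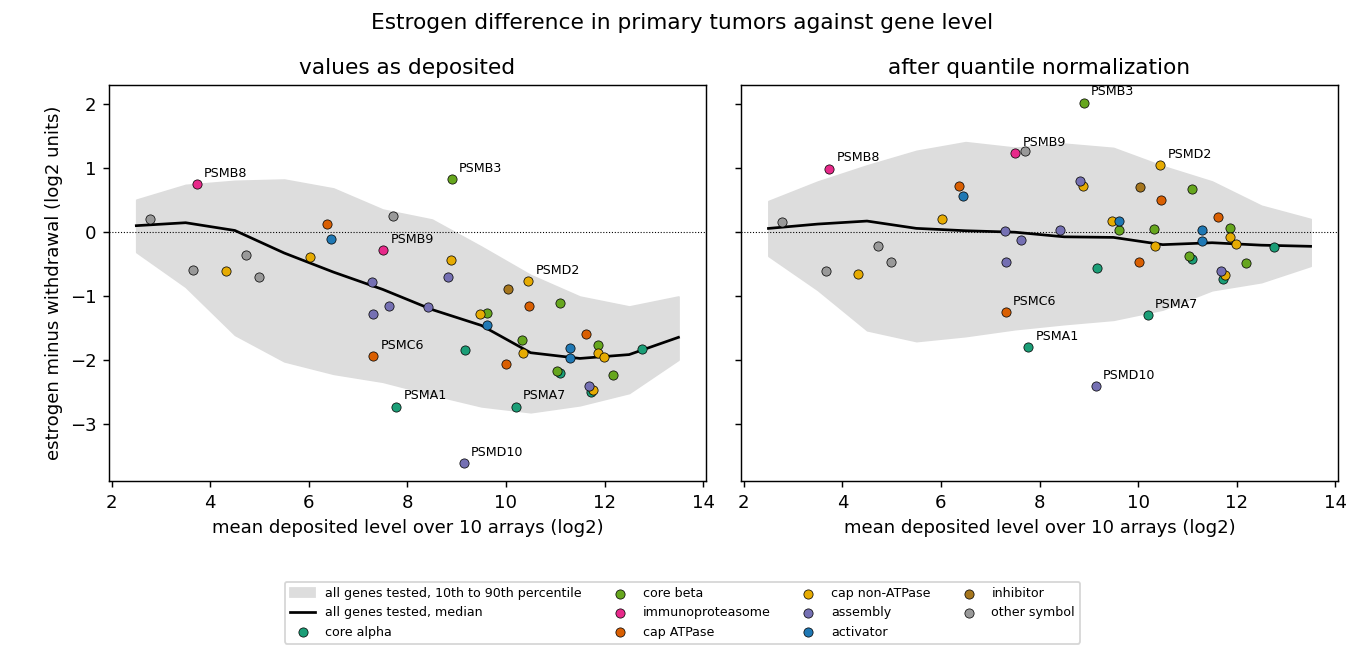
Estrogen minus withdrawal in primary tumors (vertical axis, log2 units) against each gene's mean deposited value (horizontal axis, log2), as deposited (left) and after quantile normalization (right); points are proteasome genes coloured by role, the line is the median of all tested genes in steps of 1 log2 unit and the band their 10th to 90th percentile. As deposited the line falls to about -1.90 among bright genes and most members lie near it; PSMB3 lies above the band, and PSMD10 below it, on both sides of the figure.

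Some members left that common course. PSMB3, a structural beta subunit, read higher with estrogen in primary tumors, at 7.95 and 8.20 against 6.94 and 7.51. The groups did not overlap, the difference was 0.83 ± 0.48 as deposited (adjusted p = 0.312) and 2.02 ± 0.49 after quantile normalization (adjusted p = 0.0789). In lymph nodes PSMB3 read 10.45, 10.58 and 9.47 with estrogen and 8.97, 10.02 and 8.97 after withdrawal, all above the 4 primary tumors as deposited. After quantile normalization the lymph nodes reached 10.45, and the values overlapped those of the estrogen-treated primary tumors at 9.04 and 9.19. PSMD2, a cap scaffold subunit, differed by -0.76 as deposited and by 1.04 ± 0.32 after quantile normalization (adjusted p = 0.117). PSMD10 (gankyrin), a cap assembly chaperone, went the other way, with 7.19 and 7.32 with estrogen against 10.68 and 11.05 after withdrawal. Its difference was -3.60 ± 1.04 as deposited (adjusted p = 0.0685) and -2.40 ± 0.83 after quantile normalization (adjusted p = 0.154). PSMA1 differed by -2.72 ± 1.12 and -1.79 ± 0.93 on the 2 scales, also without a call. The only other members above 0 as deposited were PSMB8 (0.75), PSME3IP1 (0.25), PSMD7-DT (0.20) and PSMC3 (0.12).

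The same treatment comparison in lymph node metastases called no member on either scale, with 0 genes called among all 17170 tested. At an unadjusted p below 0.05 there were 3 members as deposited (PSMG4 and PSMD12 higher, PSMG3-AS1 lower) and 3 after quantile normalization (PSMG4, PSMD12 and PSME3, all higher), beside 5.84% and 6.49% of all genes. The members' median was 0.04 as deposited and 0.08 after quantile normalization, beside -0.02 and 0.02 for all genes. Within the lower and the higher level of hybridization control signal, the members' median as deposited was 0.16 (2 arrays against 2) and 0.05 (1 against 1). That of the immunoproteasome pair, PSMB8 and PSMB9, was -1.67 and 1.45. The 95% intervals of the members' differences reached 0.43 to 2.08 to either side, with a median of 0.82, as deposited, and 16 of 46 intervals lay within 1 log2 unit of 0, so for the rest a difference of 1 unit to at least 1 side was within the interval.

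PSMB5 read 12.42, 11.98 and 12.76 in lymph nodes with estrogen and 12.42, 12.40 and 12.28 after withdrawal, a difference of 0.02 ± 0.30. PSMB6 differed by 0.19 ± 0.36 and PSMB7 by 0.16 ± 0.29. For all 3 active subunits the groups overlapped. The greatest positive difference was that of PSMG4, a chaperone of alpha ring assembly, at 8.23, 7.71 and 8.32 with estrogen and 7.42, 7.82 and 6.15 after withdrawal (0.96 ± 0.41, adjusted p = 0.854). After quantile normalization its groups no longer overlapped (7.90 to 7.99 against 6.24 to 7.50), but the difference of 1.03 ± 0.32 was not called (adjusted p = 0.544). PSMD12 differed by 0.68 ± 0.29, but by -0.01 on its other probe set (mean 7.43). Of the structural genes, PSMD12, PSMB3 (0.85 ± 0.39), PSMB2 (0.50 ± 0.30) and PSMD8 (0.44 ± 0.31) had the greatest positive test statistics. The most negative outside the active, activator and assembly genes were those of PSMG3-AS1 (-0.67 ± 0.27), PSMA3-AS1 (-0.44), PSMD6 (-0.46) and PSMA1 (-0.85 ± 0.91). The activators ran from -0.45 (PSME1) to 0.38 (PSME3), the assembly genes from -0.91 (PSMD10) to 0.96, PSMD4 was at 0.22 and PSMD14 at 0.05. PSMF1 was at 0.55, but at -0.51 on its next brightest probe set (mean 7.87). As deposited 0 members lay above the withdrawn arrays without overlap and 1, PSMG3-AS1, lay below, beside 4.47% and 5.46% of all genes. After quantile normalization 4 lay above (PSMD11, PSMD12, PSME3 and PSMG4) and the same 1 below, beside 5.47% and 5.63%.

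Whether the estrogen difference itself differed between the sites was tested as an interaction. No member was called as deposited or after quantile normalization (of all genes 0% were called higher on both scales, and 0.0116% and 0.00582% lower). The members' median interaction was 1.72 as deposited, beside 0.15 for all genes, and 0.21 after quantile normalization, beside -0.02. As deposited it depended on signal. Among genes with a mean of 10 or more it was 1.87 for 21 members and 1.78 for all 847 genes. From 7 to 10 it was 1.65 for 16 members and 0.93 for all 3169 genes. At an unadjusted p below 0.05 there were 21 members as deposited, all positive, and 2 after quantile normalization (PSMC6 at 1.41 and PSMD2 at -0.96), beside 10.8% and 6.34% of all genes. As deposited the greatest test statistics were those of PSMA5 (2.27 ± 0.43, adjusted p = 0.142), PSMB4 (2.27), PSMC1 (1.81) and PSMA4 (1.88). Leaving out the estrogen lymph node of mouse 11 gave 21 called members as deposited, and leaving out the estrogen primary tumor of mouse 14 gave 4. These counts apply to the deposited scale. They are given without the share of all genes called, so they are not read as particular to the members.

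**Figure D3:**
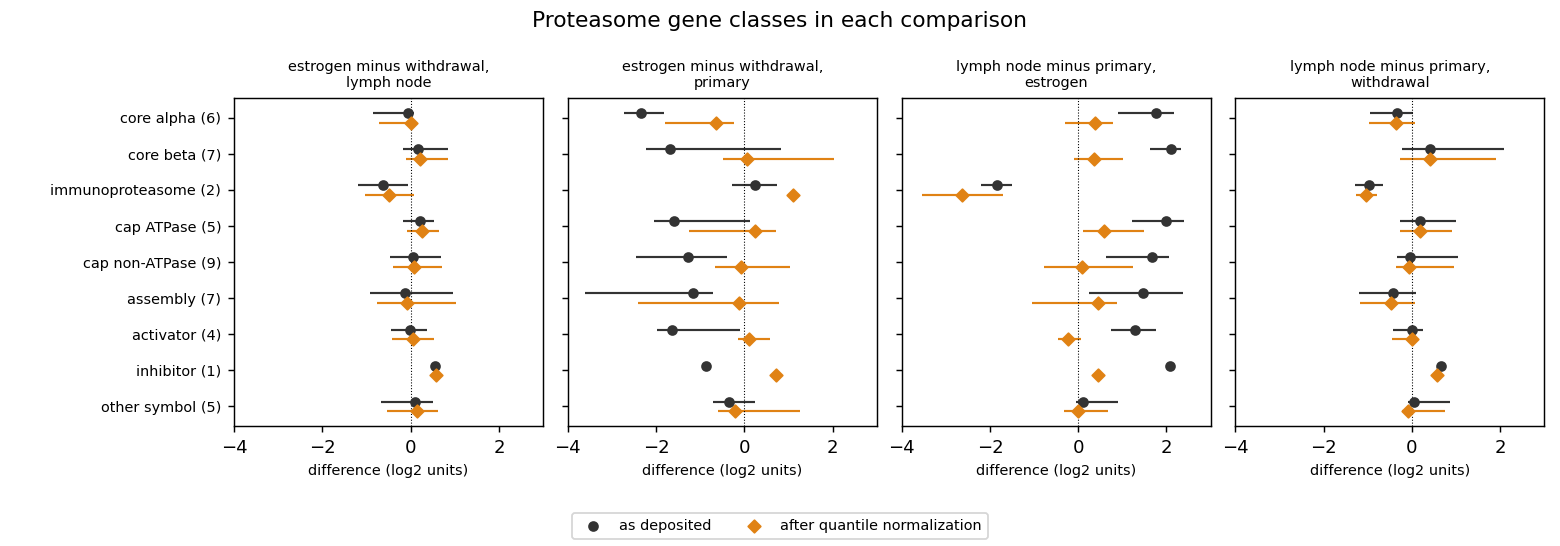
Median (points) and range (lines) of the differences within each role class (tested genes in brackets) for the 4 comparisons, in log2 units, as deposited (dark circles) and after quantile normalization (orange diamonds). As deposited, most classes lie well below 0 in primary tumors with estrogen against withdrawal, and above 0 in lymph node against primary with estrogen; the immunoproteasome pair lies opposite in the latter on both scales.

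Lymph node metastases were then set against primary tumors with estrogen present. As deposited, 21 of 46 members were higher in lymph nodes and 0 lower (7.81% of all genes were higher, 0.949% lower). These were 10 of 13 core genes, 7 of 14 cap genes, PSME1, PSME2, PSMF1 and PSMG2. With the mouse as a fixed block, which compares the sites within the mice that gave both, 0 members and 0 of all genes were called. With estrogen this fit rests on mice 11 and 14 alone, so its lack of calls says nothing about the members. When only the groups compared were fitted, 0 members were called. After quantile normalization 0 members were called, beside 0.0757% of all genes higher and 0.384% lower, and the members' median fell from 1.61 (all genes 0.26) to 0.16 (all genes 0.02). Among genes with a mean of 10 or more, the deposited median was 1.91 for 21 members and 1.88 for all 847 genes. From 7 to 10 it was 1.47 for 16 members and 1.11 for all 3169 genes. The lymph nodes lay above both primary tumors for 34 members and below for 0 as deposited (28.0% and 9.98% of all genes), and above for 9 and below for 5 after quantile normalization (13.6% and 14.3%). At an unadjusted p below 0.05, 30 members were higher and 1, PSMB9, lower as deposited (23.1% of all genes passed), and 5 were higher and 3 lower after quantile normalization (12.1%). This comparison shares its 2 primary tumor arrays with the estrogen comparison above, and 14 members were called in both.

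All 7 constitutive beta subunits were called. PSMB2 and PSMB3 differed by 2.34 ± 0.34 and 2.10 ± 0.44, PSMB5 by 2.19 ± 0.34, PSMB6 by 1.98 ± 0.41, PSMB7 by 1.63 ± 0.33, PSMB1 by 1.87 and PSMB4 by 2.13. PSMB2 read 10.65, 10.46 and 10.25 in lymph nodes against 7.67 and 8.55 in primary tumors, without overlap, and kept a difference of 1.01 ± 0.35 after quantile normalization (adjusted p = 0.296). The alpha subunits PSMA4 (1.91), PSMA5 (2.18) and PSMA7 (2.13) were called, as were the cap genes PSMC1 (1.99), PSMC4 (2.40), PSMC6 (2.12), PSMD4 (1.89), PSMD8 (1.92), PSMD12 (1.90) and PSMD14 (2.05). PSMC6 kept the greatest positive quantile difference of the members, 1.49 ± 0.34 (adjusted p = 0.119), with 7.62, 7.62 and 7.71 in lymph nodes against 6.40 and 5.92 in primary tumors. PSMF1 read 10.91, 11.70 and 9.99 against 8.59 and 8.98, a difference of 2.09 ± 0.48. Its next brightest probe set (mean 7.87) gave only 0.19, so this call rests on 1 probe set. Further probe sets of other called genes also gave smaller differences. Those of PSMD4 gave 1.59 and 0.44 (means 10.92 and 8.21). Those of PSMC1, PSMD12 and PSMD8 gave 1.11, 1.10 and 0.40 (means 9.26, 7.43 and 4.75). PSMG2 differed by 2.38 ± 0.30, and by 0.94 on its other probe set (mean 8.95). Of the other assembly genes, PSMG4 differed by 1.68, PSMG1 by 1.47, PSMD10 by 1.48, PSMG3 by 0.87, PSMD9 by 0.37 and PSMD5 by 0.24, and of the other activators PSME4 by 1.11 and PSME3 by 0.74, none called. The count of 21 became 2 without the estrogen primary tumor of mouse 11, 8 without the lymph node of mouse 6 and 34 without the lymph node of mouse 11. These shifts, too, are given without the share of all genes and are not read as a trait of the members. Among the arrays with the lower hybridization control signal (2 against 2), the members' median was 1.90 as deposited and 0.33 after quantile normalization, and that of the immunoproteasome pair -2.52 and -3.38. This subset differs from the full comparison only by leaving out the lymph node of mouse 11, so it is no separate check on control signal. Of the 8 luminal markers, EPCAM (2.66), CDH1 (2.13), KRT18 (1.61) and GATA3 (1.56) were also called higher in lymph nodes as deposited, with a median over the list of 1.59, and none after quantile normalization, with a median of 0.27. The stromal collagen gene COL3A1 was called lower as deposited, at 2.43 to 2.89 in lymph nodes against 4.25 and 4.94 in primary tumors (-1.90), and not after quantile normalization (-2.16, adjusted p = 0.100). The part of these markers in the proteasome differences was not tested.

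After estrogen withdrawal no member differed by site at the threshold (0 of 46, with 0 called among all genes). At an unadjusted p below 0.05 there were 3 members as deposited (PSMB3, PSMD8 and PSME3IP1) and 2 after quantile normalization (PSMB3 and PSMD8), all higher, beside 10.0% and 8.39% of all genes. Without overlap 7 members lay above and 6 below as deposited (20.8% and 10.2% of all genes), and 6 above and 8 below after quantile normalization (17.7% and 13.8%). The members' median was -0.08 as deposited and -0.12 after quantile normalization, beside 0.07 and 0.01 for all genes, and among the arrays with the higher hybridization control signal (1 against 2) it was -0.32 and -0.19. PSMB5 differed by 0.40 ± 0.34, PSMB6 by 0.70 ± 0.41 and PSMB7 by -0.23 ± 0.33. PSMB3 had the greatest difference, at 8.97, 10.02 and 8.97 in lymph nodes against 6.94 and 7.51 (2.08 ± 0.44, adjusted p = 0.199, and 1.91 after quantile normalization), followed in test statistic by PSMD8 (1.05 ± 0.36), PSME3IP1 (0.86 ± 0.35) and PSMD3 (0.79 ± 0.41). At the negative end were PSMA3 (-0.82 ± 0.69), PSMA1 (-0.96 ± 1.04), PSMA7 (-0.47) and PSMD6 (-0.33). The assembly genes ran from -1.21 (PSMD10) to 0.10 (PSMG2) and the activators from -0.44 (PSME4) to 0.25 (PSME3), with PSMD4 at -0.28 and PSMD14 at 0.11. PSMF1 was at 0.65, but at -0.23 on its next brightest probe set (mean 7.87).

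Within the 4 mice that gave both sites, 12 of 46 members were higher in the lymph node in all 4 and 2 were lower in all 4 as deposited, beside 16.6% and 4.01% of all genes. After quantile normalization the numbers were 8 and 3, beside 9.11% and 6.52%. PSMB2 was higher in the lymph node by 0.89, 2.78, 1.69 and 0.60 in mice 10, 11, 14 and 19 as deposited, and by 0.76, 1.69, 0.18 and 0.70 after quantile normalization. PSMB5, PSMC1, PSMD3 and PSMG2 were likewise higher in all 4 mice on both scales. PSMB8 and PSMB9 were lower in the lymph node in all 4 mice on both scales, and PSMD5 after quantile normalization only.

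The immunoproteasome genes PSMB8 and PSMB9 followed a course of their own. In estrogen-treated lymph nodes PSMB9 read 5.07 (mouse 6), 8.24 (mouse 11) and 5.36 (mouse 14). Withdrawn lymph nodes read 7.82 (mouse 9), 7.54 (mouse 10) and 6.90 (mouse 19). Primary tumors read 8.68 in mouse 11 and 8.10 in mouse 14 with estrogen, and 9.57 in mouse 10 and 7.84 in mouse 19 after withdrawal. The lymph nodes of mice 6 and 14 were the low ones, and that of mouse 11 lay among the primary tumors. PSMB8 was dim. In the same order of mice, its estrogen-treated lymph nodes read 2.98, 4.03 and 2.78, its withdrawn ones 4.05, 3.48 and 2.47, its estrogen-treated primary tumors 5.51 and 3.99, and its withdrawn ones 4.96 and 3.07, and the groups overlapped. The array's probe set for PSMB10, the remaining inducible subunit, is shared with CTRL and was not used.

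**Figure D4:**
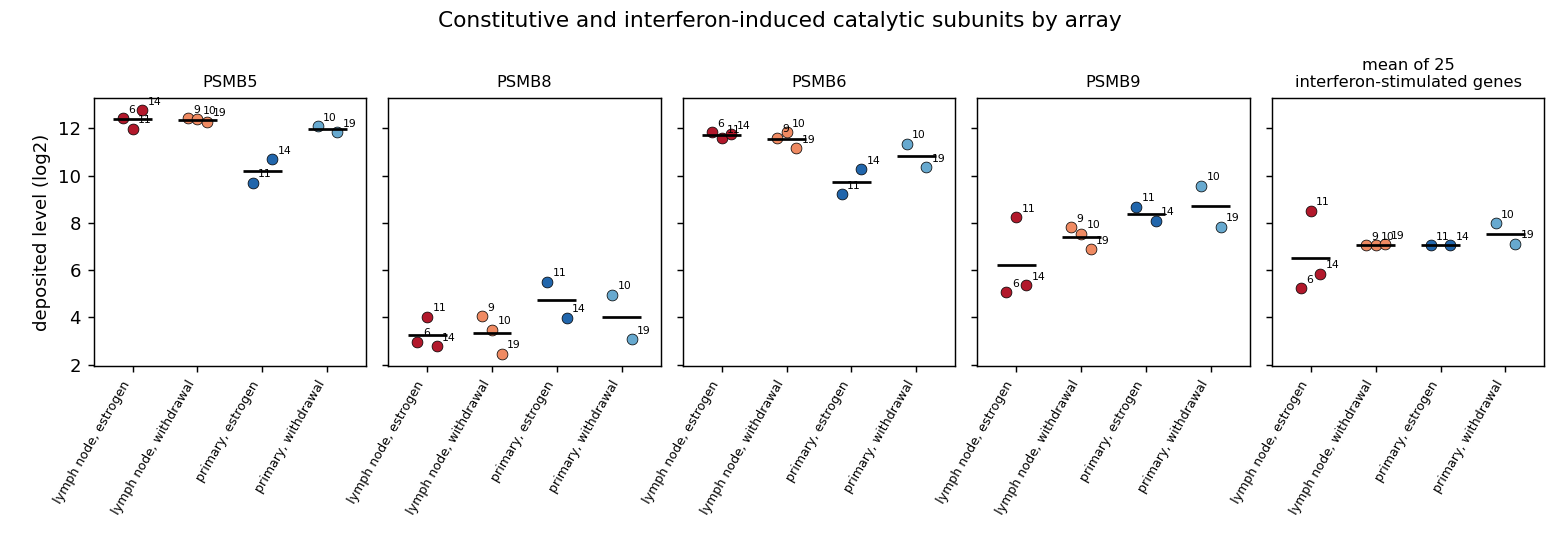
Deposited log2 value of the constitutive subunits PSMB5 and PSMB6, the interferon-induced subunits PSMB8 and PSMB9, and the mean of 25 interferon-stimulated genes, on each array (points, with mouse numbers) by group; horizontal lines are group means. PSMB5 and PSMB6 are lowest in the 2 estrogen-treated primary tumors, while PSMB9 and the interferon mean are lowest in the estrogen lymph nodes of mice 6 and 14. Heights of different genes are not comparable.

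PSMB9 differed by -2.19 ± 0.93 between lymph node and primary tumor with estrogen (adjusted p = 0.200) and by -3.53 ± 1.00 after quantile normalization (adjusted p = 0.198), so it was not called on either scale. Without the estrogen lymph node of mouse 11 the difference was -3.17 (adjusted p = 0.00537), and -4.62 (adjusted p = 0.00515) after quantile normalization. After withdrawal the site difference was -1.28 ± 0.93 (adjusted p = 0.740), although all 3 lymph node values lay below both primary values. Within mice 10, 11, 14 and 19, lymph node minus primary was -2.03, -0.44, -2.74 and -0.94 for PSMB9, and for PSMB8 -1.48, -1.48, -1.20 and -0.60. Estrogen against withdrawal gave -1.20 ± 0.82 for PSMB9 in lymph nodes and -0.28 ± 1.00 in primary tumors, and -0.07 ± 0.66 and 0.75 ± 0.80 for PSMB8, none called. For PSMB9 the lymph node value was -2.20 without the estrogen array of mouse 11 (adjusted p = 0.258), and the primary tumor value turned to 1.23 ± 1.07 after quantile normalization (adjusted p = 0.533).

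Each inducible subunit was also set against the constitutive subunit it replaces on the same array. PSMB9 minus PSMB6 was -6.76, -3.35 and -6.40 in lymph nodes with estrogen, -3.80, -4.31 and -4.27 in lymph nodes after withdrawal, -0.54 and -2.18 in primary tumors with estrogen and -1.78 and -2.51 in primary tumors after withdrawal. All 4 primary tumors lay above all 6 lymph nodes, also after quantile normalization (-2.41 to -0.73 against -6.50 to -2.97). PSMB8 minus PSMB5 was -9.98 to -7.96 in lymph nodes and -8.77 to -4.20 in primary tumors, and overlapped. The absolute size of these differences reflects probe brightness and only the change between arrays is read; no test was run on them.

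**Figure D5:**
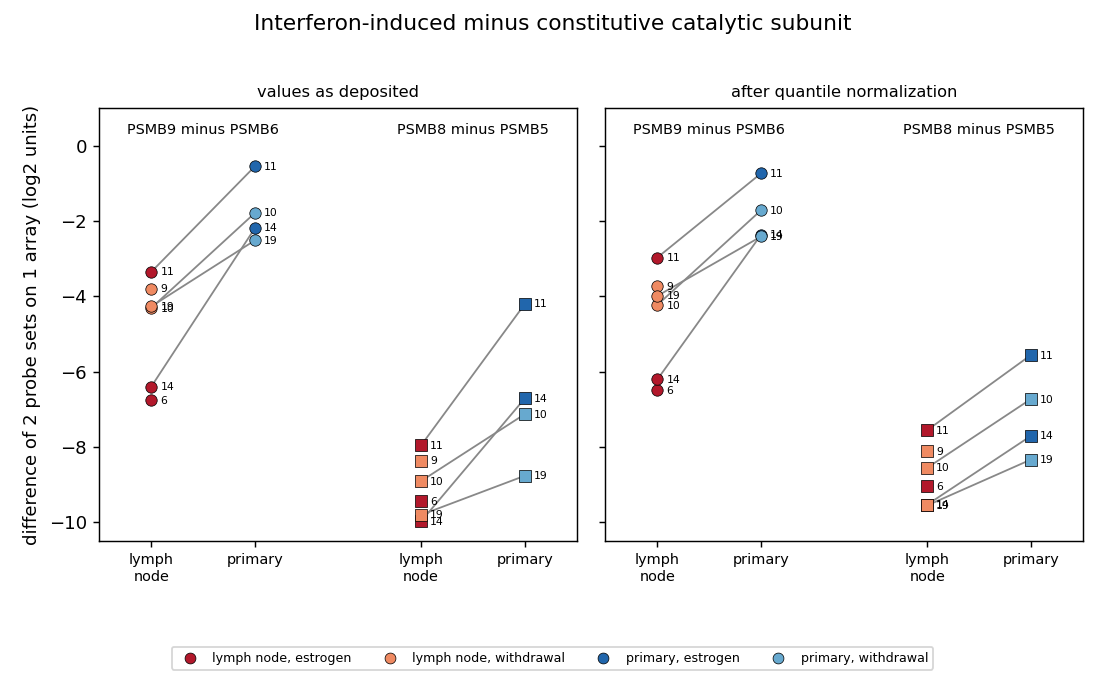
Difference of 2 probe sets on the same array (log2 units) by site, for PSMB9 minus PSMB6 (circles) and PSMB8 minus PSMB5 (squares), as deposited (left) and after quantile normalization (right); colours give the group, numbers the mouse, and lines join the 2 sites of 1 mouse. Every line rises from lymph node to primary tumor, and for PSMB9 minus PSMB6 no lymph node reaches a primary tumor.

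Interferon-stimulated genes are given beside PSMB9. The mean of the 25 tested of 27 listed was 5.24, 8.52 and 5.85 in lymph nodes with estrogen, 7.07, 7.06 and 7.10 in lymph nodes after withdrawal, 7.05 and 7.05 in primary tumors with estrogen and 7.98 and 7.12 after withdrawal. The lymph nodes of mice 6 and 14 were lowest, as for PSMB9, and that of mouse 11 was highest. NLRC5 is a transactivator of MHC class I genes. Its estrogen-treated lymph nodes read 3.06, 8.58 and 4.21 and the withdrawn ones 4.58, 4.29 and 6.41, while the 4 primary tumors read 8.15, 7.96, 8.98 and 6.65. Its site differences of -2.81 with estrogen and -2.73 after withdrawal were not called (adjusted p = 0.310 and 0.612). NLRC5 was chosen after its values were seen and is the most negative of the MHC class I list with estrogen: 10 of the 13 tested genes of that list were higher in lymph nodes as deposited (median 0.71), and 4 of 13 after quantile normalization (median -0.29). The part of the interferon response in the PSMB9 pattern was not tested. Leukocytes carry the immunoproteasome constitutively. Their marker mean was 2.94 to 3.22 in lymph nodes with estrogen, 2.90 to 3.20 in those after withdrawal, 3.23 to 3.26 in primary tumors with estrogen and 2.81 to 2.92 after withdrawal. CD3E read 2.31 to 3.05, MS4A1 2.08 to 2.74 and HLA-DRA 2.96 to 3.82 on the 10 arrays. As deposited, 8 of the 9 tested markers were higher with estrogen than after withdrawal in primary tumors, 5 without overlap (22.6% of all genes). With estrogen, 5 of the 9 were lower and 4 higher in lymph nodes than in primary tumors. Without overlap, 3 lay below and 1 above (9.98% and 28.0% of all genes). CD79A, the brightest tested leukocyte marker, differed by site as deposited. It read 5.19 to 6.52 in lymph nodes and 3.73 to 4.95 in primary tumors, without overlap, and was not called. LAPTM5, another leukocyte gene, was dim throughout (2.25 to 3.37) and was called as deposited only, higher in primary tumors with estrogen (0.94 against withdrawal, with -0.78 for lymph node minus primary tumor). After quantile normalization these were 0.95 and -0.76, not called (adjusted p = 0.0758 and 0.188). These probe sets are human and the host is a mouse, so these levels cannot show how many host leukocytes were present. The part of leukocytes in the PSMB9 values was not tested.

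The estrogen lymph node of mouse 11, on which several results above rest, was set against the other 2 arrays of its group. Against their mean it was lower by 1 log2 unit or more for 12 members and higher by that much for 4 as deposited, which is 26.1% and 8.70% of members beside 22.5% and 7.32% of all genes. After quantile normalization the numbers were 11 and 6, or 23.9% and 13% of members, beside 15.9% and 12.5%. As deposited these shares are near those of all genes. The low members included PSMA1 (-3.48; 5.01 against 7.77 and 9.20), PSMD10 (-2.81), PSMA3 (-2.25), PSMG1 (-1.95) and PSMD1 (-1.93). The high ones were PSMB9 (3.03), PSMC4 (1.43; 12.24 against 11.50 and 10.12), PSMF1 (1.25) and PSMB8 (1.15).

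Partners of the proteasome that do not carry the family name are given for comparison. Of 21 listed, 20 were tested. With estrogen in primary tumors 2 were called lower, SEM1, a small cap subunit (8.37 and 8.34 against 11.96 and 11.91, -3.57 ± 0.91), and TXNL1, a cap-bound thioredoxin (-2.37 ± 0.38), and 0 higher. Their median was -0.96. In lymph nodes against primary tumors with estrogen, ADRM1, a ubiquitin receptor of the cap (2.26), TXNL1 (2.25) and RAD23B, a shuttle for ubiquitinated substrates (2.00), were called higher and 0 lower. POMP, the core maturation chaperone, read 8.37 and 8.62 in primary tumors with estrogen against 11.32 and 10.48 after withdrawal. None of the list was called after quantile normalization, where the medians were -0.13 and 0.00.

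NFE2L1 encodes NRF1, the transcription factor that induces proteasome genes when proteasome activity falls. Lymph nodes read 7.09, 6.98 and 6.78 with estrogen and 7.76, 7.46 and 7.10 without, and primary tumors 5.53 and 4.96 with estrogen and 6.48 and 7.09 without. The estrogen-treated primary tumors were the lowest arrays. As deposited it was called lower with estrogen in primary tumors (-1.54 ± 0.33, adjusted p = 0.0295) and higher in lymph nodes than primary tumors with estrogen (1.70 ± 0.31, adjusted p = 0.0132). After quantile normalization the differences were -1.03 and 1.21, no longer called (adjusted p = 0.143 and 0.168). Of the 7 tested genes of this pathway list no other was called. Ubiquitin activation and transfer gave 1 call in each of these comparisons, UBE2K (-2.01) and CDC34 (1.09), of 5 tested of 9 listed, and UBB, the only testable ubiquitin gene of 4, gave none. Of 13 tested genes of MHC class I presentation, which receives proteasome products, B2M (-2.42) and TAP1 (-3.16) were called lower with estrogen in primary tumors, B2M (1.62) and CALR (2.57) higher in lymph nodes with estrogen, and none after quantile normalization. GBP2 was the only call among the 25 interferon-stimulated genes. It was lower with estrogen than after withdrawal in primary tumors as deposited (-2.20), and was not called after quantile normalization.

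The 6 further symbols that match the name pattern do not name subunits or chaperones: 4 are antisense or divergent transcripts (PSMA3-AS1, PSMD6-AS2, PSMD7-DT and PSMG3-AS1), and PSMC3IP and PSME3IP1 encode other proteins named for a partner. None of the 5 tested was called in any comparison, and their medians were -0.35 as deposited for estrogen in primary tumors and 0.12 for the site difference with estrogen. PSMA6, PSMB10, PSMB11, PSMC5, PSMD7 and PSMD13 had no probe set assigned to them alone and were not used. Of the 48 members, 25 had several probe sets. Where at least 2 of them had a mean of 4 or more (17 members), all agreed in sign for 14 members in the estrogen comparison of primary tumors, 15 in the site comparison with estrogen, 10 in the estrogen comparison of lymph nodes and 7 in the site comparison after withdrawal.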

How the data were processed

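The authors deposited log2 values of human Affymetrix probe sets on 10 arrays; RMA and Partek are named, without versions, per the submitters' processing notes. Of 61359 probe sets, 44532 carried exactly 1 symbol in the platform annotation. The brightest by mean stood for each gene, control probe sets were left out, and genes with a mean of at least 2.31 (the 25th percentile of probe set means) were tested, which left 17170. Groups follow the labels. limma 3.58.1 in R 4.3.3 was fitted to all arrays with group means and the mouse as a random block (consensus correlation -0.04), with 5 contrasts and Benjamini-Hochberg adjustment, and was tested on simulated data. The mice are the pairing: both sites came from the same animals, although correlations of their deviations ran from -0.21 to 0.18. Alternatives were quantile normalization, other filters, no block or a fixed block, the mean of all probe sets, trend and robust variance, only the groups compared, the hybridization control signal (2 levels) as a covariate, and leaving out each array. Quantile normalization with each array left out was chosen after seeing the data. The number of arrays limits precision. Members and lists were chosen with earlier results of these data known.

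Named genes were the active, inducible, activator, inhibitor and assembly genes, PSMD4 and PSMD14, the other called members, and otherwise up to 4 of the other members with the greatest test statistics in each direction. From other lists, called genes are named, and a few others (POMP, NLRC5, CD3E, CD79A, MS4A1, HLA-DRA and PTPRC) were picked after their values were seen. Members named for the mouse 11 lymph node array, the within-mouse signs and the departures from the common course were also chosen after their values were seen. PSMB10 minus PSMB7 had been planned and could not be computed. No sequence of the human genes is printed.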

Additional observations from a re-analysis of the deposited data

How the results depend on the processing

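The lymph node response to estrogen gave 0 called members under each alternative run. For estrogen in primary tumors, the count of 15 became 0 with quantile normalization, 24 with only the groups compared and 27 with the hybridization control signal as a covariate, and ranged from 0 to 26 when single arrays were left out. For lymph node against primary with estrogen, 21 became 0 with quantile normalization, 0 with only the groups compared, 0 with the fixed replicate block (mouse) and 34 with the hybridization covariate, with a range of 2 to 34 over single arrays left out. The interaction, 0 in the main analysis, gave 25 with the hybridization covariate and 0 to 21 over single arrays left out. The site comparison after withdrawal, also 0, gave 5 with that covariate, 0 with the fixed block, and 0 under the other alternatives. Only the lymph node groups held both levels of control signal, with the higher level in mice 11 and 19. The covariate therefore rests on those lymph node arrays and cannot separate control signal from estrogen in primary tumors. Its counts of 27 and 25 do not show that calls outlast such an adjustment. On the quantile scale with single arrays left out, counts ran from 0 to 4 in primary tumors: PSMA7, PSMB3, PSMD10 and PSME3IP1 without the mouse 11 lymph node with estrogen, and PSMB3 without that of mouse 14. They ran from 0 to 1 in the site comparison with estrogen (PSMB9). The counts in this section are not set beside the share of all genes called under the same setting. They therefore do not show a trait particular to the members. Quantile normalization turned the sign of called members in primary tumors (PSMB5 0.06, PSMB7 0.05, PSMC1 0.24, PSME1 0.04) and between sites with estrogen (PSMB7 -0.09, PSME1 -0.38, PSME2 -0.07). The cause of these changes was not tested. No fixed block could be fitted for the estrogen comparisons, since each mouse had 1 treatment. With groups of 2 and 3 mice, no rule for outlying samples could be applied.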
